A study of Mus musculus with 1 sample.

Results

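The small leucine-rich proteoglycans are secreted matrix proteins, and this account covers 10 of their genes, taken from the deposited table by gene name: Bgn, Dcn, Aspn, Fmod, Lum, Prelp, Kera, Omd, Ogn and Podn. All 10 had a row, of 23386 genes in the table. The data are RNA sequencing of 1 mouse library, which its labels call a normal fibroblast culture, grown out and expanded from normal pancreas. The strain background is mixed (C57BL/6 and BALB/c), and the genotype is written tf1acre-;KrasWT;Tgfrb2flox/flox, which reads as negative for Cre and with floxed alleles of a TGF-beta receptor gene. The value column of the table carries a CAF code, the usual short form of cancer-associated fibroblast, which disagrees with the label, so the cells are called the library labelled normal fibroblast throughout. No replicate and no library of the other condition was analysed here, so levels are described and no difference between conditions was tested. The labels do not say whether 1 animal or several gave the culture.

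Proteins of this family share a core of leucine-rich repeats, which in many of them binds collagen fibrils and sets how the fibrils grow and pack. Most carry sugar chains: chondroitin or dermatan sulfate on decorin and biglycan, and keratan sulfate on lumican, fibromodulin and keratocan. Free forms of some members also bind growth factors such as TGF-beta or act on receptors of the cell surface, and in the pancreas decorin, lumican and biglycan are known as parts of the fibrous stroma that fibroblasts lay down. The family is divided by sequence into classes, and several of its genes lie side by side in the genome.

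A pair of class I genes gave nearly all of the reads of the 10 genes. Bgn, the biglycan gene (RefSeq NM_007542, GRCm38 chromosome X, 73483601 to 73495936), had 123576 reads, and Dcn, the decorin gene (NM_007833 and a second transcript, chromosome 10, 97479500 to 97518163), had 27336 reads. Their coding sequences were identical at 67.4% of 1032 aligned bases, the highest identity of the 45 pairs of the 10 genes. This identity, of bases and over aligned bases alone, did not separate the classes in general. Its median was 58.9% over 13 pairs within a class and 59.7% over 32 pairs between classes. Ogn and Aspn, of different classes, had the next highest identity, 65.8%. All pairs lay between 53.9% and 67.4%. Unrelated genes were not aligned, so whether this measure can resolve the classes was not tested. The longest run that the Dcn and Bgn transcripts share exactly is 17 bases long and lies inside both coding sequences. Runs of such length also occur in other pairs of the 10 genes, with 19 bases for Omd and Podn and 16 for Dcn and Prelp. The run of Dcn and Bgn is printed here as the longest exact match of the 2 leading genes. Capitals mark the shared run, with 15 bases of each transcript on either side, 5′ to 3′, from the GENCODE M21 transcripts.
Dcn: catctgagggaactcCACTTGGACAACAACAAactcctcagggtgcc
Bgn: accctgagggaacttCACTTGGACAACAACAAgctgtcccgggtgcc
No window of 35 bases of the Dcn transcript occurred in a transcript of any other gene. For Bgn, 1.05% of windows did, matching transcripts of 2216 other genes, and for Podn 1.15%, matching 2209 genes. Bgn and Podn share a run of 50 bases, the longest of any pair. In the Bgn transcript it begins at base 1956, beyond the coding sequence, which ends at base 1279. Shared windows made up 6.23% for Omd, matching 713 genes, and 8.96% for Prelp, all with its antisense gene Gm15851. How the authors treated reads that match several genes is not stated, so the part of such reads in these levels was not tested.

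The windows around 3 of the start sites are printed next, because the genes lie at different places in the order of levels given below. Bgn had the highest level of the 10, and Ogn and Omd are neighbours on chromosome 13 whose levels differ widely. Each window runs from 250 bases before to 50 bases after the annotated start (RefSeq, GRCm38; Bgn chrX:73483351-73483650, Ogn chr13:49607765-49608064, Omd chr13:49582212-49582511, all on the plus strand), 5′ to 3′. Capitals mark matches, on either strand, to the TATA-box letters TATAAA, those of the CCAAT box, the GC-box letters GGGCGG or the AP-1 letters TGANTCA.
Bgn: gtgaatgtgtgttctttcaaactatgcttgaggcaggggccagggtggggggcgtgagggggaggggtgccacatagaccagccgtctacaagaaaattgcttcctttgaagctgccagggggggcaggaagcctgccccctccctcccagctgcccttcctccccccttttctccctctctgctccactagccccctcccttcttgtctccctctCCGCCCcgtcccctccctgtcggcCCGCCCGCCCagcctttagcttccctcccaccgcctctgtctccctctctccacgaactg
Ogn: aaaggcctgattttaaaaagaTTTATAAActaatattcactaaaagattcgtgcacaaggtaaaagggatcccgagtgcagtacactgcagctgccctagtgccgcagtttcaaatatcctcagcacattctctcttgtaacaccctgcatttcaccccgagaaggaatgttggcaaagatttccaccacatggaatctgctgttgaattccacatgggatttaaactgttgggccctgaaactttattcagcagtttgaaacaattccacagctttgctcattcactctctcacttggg
Omd: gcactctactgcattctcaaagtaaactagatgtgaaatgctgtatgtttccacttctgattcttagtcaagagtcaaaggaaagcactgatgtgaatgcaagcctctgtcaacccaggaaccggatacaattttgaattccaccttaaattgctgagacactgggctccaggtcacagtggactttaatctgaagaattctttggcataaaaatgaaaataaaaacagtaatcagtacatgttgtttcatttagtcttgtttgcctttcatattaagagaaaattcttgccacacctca
The Bgn window holds GGGCGG 3 times on the opposite strand, at positions -34, -10 and -6 counted from the start, the last 2 overlapping. Of the 32851 RefSeq windows of 300 bases, 35.7% hold that motif, 37.4% hold CCAAT, 13.6% hold TATAAA and 7.81% hold TGANTCA. The Ogn window holds TATAAA in an overlapping pair at positions -229 and -227, and these letters are not found closer to it. The Omd window holds none of the 4 motifs. Windows were found for 8 of the 10 genes, but not for Dcn and Lum. The windows found held between 1 CpG (Kera and Omd) and 41 CpG (the upstream start of Podn). Bgn had 9 and Ogn 4, against a median of 7 over all windows. Podn, with 41 CpG at its upstream start and 7 at its other listed start, had 2.18 RPKM, against 386 RPKM for Bgn. Which start of Podn was in use was not tested. A match is a description of letters and shows nothing of binding.

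The library summed to 52494688 reads, recovered from 61737454 normalised counts, and 20488 protein-coding genes had a known length. All intervals are 95% intervals for counting error and do not cover variation between cultures. All 7 markers of the fibroblast list were above the median of detected coding genes, from Pdgfra at 36.5 RPKM (reads per 1000 bases of exon and 1000000 reads) to Vim at 603 RPKM. So were all 7 mesothelial markers, from Wt1 at 15.7 RPKM to Bnc1 at 102 RPKM, and 6 of 8 acinar markers. The mesothelial list summed to 346 RPKM, against 1818 RPKM for the fibroblast list, of which Vim alone had 603 RPKM. The acinar list summed to 171 RPKM, and its genes below the median were Ptf1a, with 6 reads, and Rbpjl, with 21 reads. Other cell types were lower in summed level: 22.9 RPKM for pericytes (mostly Mcam), 12.0 RPKM for macrophages and 8.30 RPKM for ductal cells. Endocrine cells summed to 0.346 RPKM and endothelial cells to 0.341 RPKM. Mcam, Lyz2 of the macrophage list (6.99 RPKM) and Krt19 of the ductal list (5.98 RPKM) were above the median of detected coding genes. In the endocrine list Sst had 0 reads, with an interval up to 0.0975 RPKM, and in the endothelial list Cldn5 had 0 reads, with an interval up to 0.0496 RPKM. With 1 library, the part of mesothelial or acinar RNA in the proteoglycan levels was not tested, and fewer cells of a type and less RNA per cell cannot be told apart.

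Together the 10 genes held 155138 reads, or 0.296% of the library (exact Clopper-Pearson interval 0.294% to 0.297%). Of these, Bgn held 79.7% (79.5% to 79.9%) and Dcn 17.6% (17.4% to 17.8%). After division by length the pair still made up nearly all of the summed level of 500 RPKM: the 3 class I genes summed to 475 RPKM, the 5 class II genes to 15.04 RPKM, and Ogn (class III) and Podn (class V) to 7.82 and 2.18 RPKM. Of the 10 genes, 8 had at least 10 reads, against 67.8% of protein-coding genes, and 4 lay above 4.94 RPKM, the median of coding genes with at least 10 reads, against 33.9% of protein-coding genes. The median of the 10 genes was 2.17 RPKM, against 1.18 RPKM over all protein-coding genes. These shares are close to the background, so the family was not high as a list; 2 of its genes were.

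**Figure D1:**
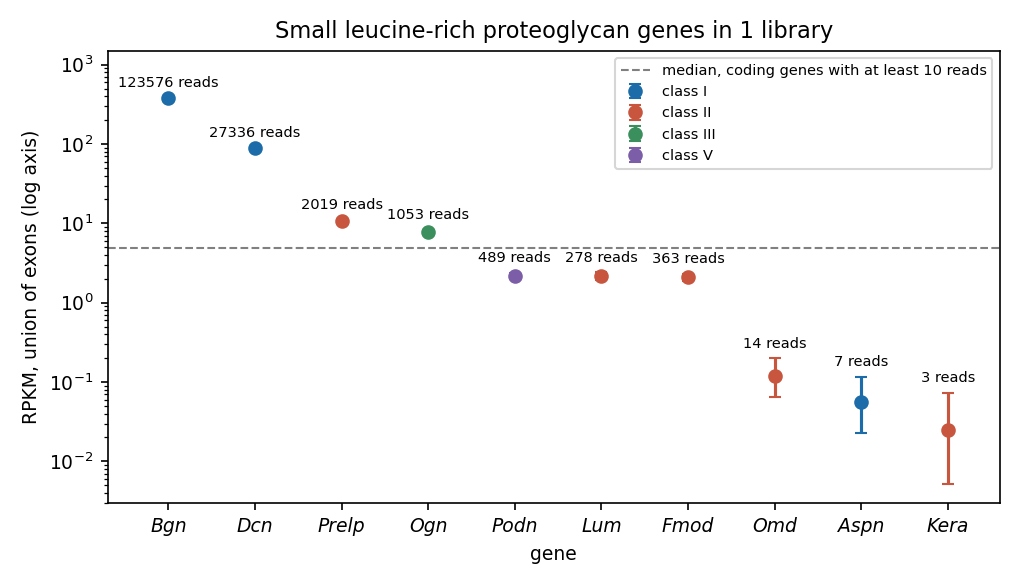
Level of each of the 10 genes on a log axis in RPKM (length: union of exons), with exact Poisson intervals for counting error as bars, coloured by class, and with the number of reads above each point. Bgn at 386 RPKM, Dcn at 89.2 RPKM, Prelp at 10.6 RPKM and Ogn at 7.82 RPKM stand above the dashed median of detected coding genes (4.94 RPKM). Omd, Aspn and Kera lie below 0.12 RPKM.

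Class I differed most within itself. Bgn, whose product carries a pair of chondroitin or dermatan sulfate chains, had 386 RPKM (384 to 388) and stood at rank 33 of 20488 protein-coding genes, or between 10 and 12 under the other 3 lengths described next. Dcn, whose product binds collagen fibrils and TGF-beta, had 89.2 RPKM (88.1 to 90.3) and stood at rank 287, or at 302, 135 and 89 with the longest transcript, the coding sequence and the named transcripts. The level of Bgn was 4.33 times that of Dcn (4.27 to 4.38). Aspn, the asporin gene, whose product lacks such a chain and carries a run of aspartate residues, had 7 reads, or 0.0566 RPKM (0.0228 to 0.117). Within a class, then, levels spanned from near the top of the library to near its floor.

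The size of the gap between Bgn and Dcn depends on the length taken for each gene. The union of exons is 6099 bases for Bgn, while the transcript that its row names has 2419 bases; for Dcn the values are 5838 bases and a mean of 1758 bases. With the lengths of the transcripts named in the table the levels were 973 RPKM for Bgn and 296 RPKM for Dcn, a ratio of 3.29 (3.24 to 3.33). With the longest transcript of each gene the ratio was 7.96, and with coding sequences 4.34. Bgn was above Dcn, and Dcn above the other 8 genes, under all 4 lengths.

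**Figure D2:**
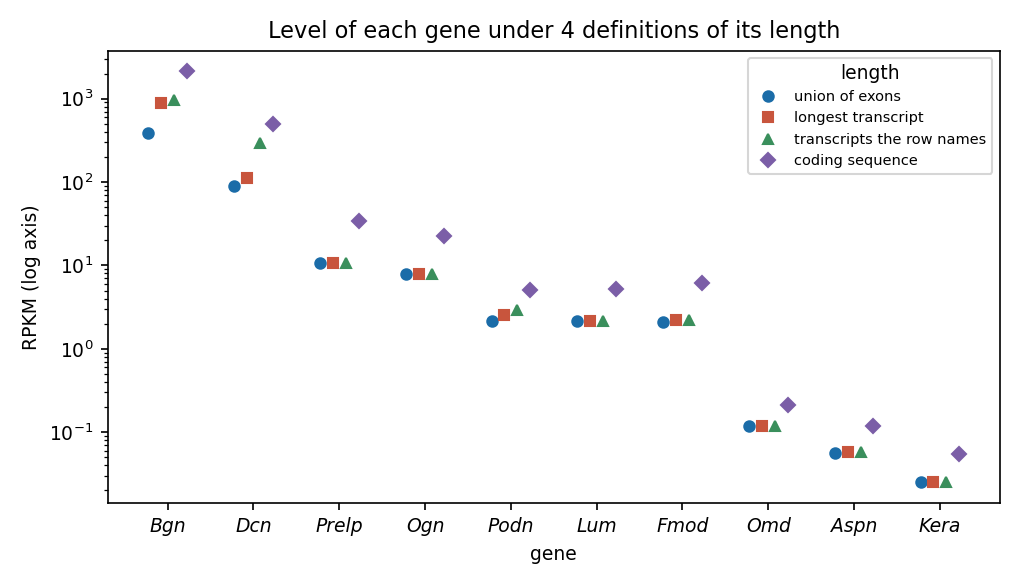
Level of each gene in RPKM on a log axis under 4 definitions of its length: union of exons, longest transcript, the transcripts named in the deposited row, and coding sequence. Bgn lies between 386 and 2127 RPKM and Dcn between 89.2 and 490 RPKM, and the order of the first 4 genes and of the last 3 is the same in each.

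In the list of 14 collagen genes, Bgn was above 13 and Dcn above 9 with the union of exons. Bgn had 1.87 times the level of Col3a1 (206 RPKM), and between 1.87 and 4.62 times under the 4 lengths. Against Col1a1, the gene of a type I collagen chain (424 RPKM), the direction changed with the length: Bgn was at 0.909 times its level with the union of exons and at 1.88, 2.07 and 3.33 times with the longest transcripts, the named transcripts and the coding sequences. Dcn was at 0.210 times the level of Col1a1, and below it under all 4 lengths, with a highest ratio of 0.767. Against Col3a1 it was at 0.433 times, and at 1.07 times with coding sequences.

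Class II genes, whose products mostly carry keratan sulfate or no chain, ranged from Prelp, above the median of detected coding genes, to Kera, with 3 reads. Prelp, whose product binds heparan sulfate and links basement membranes to collagen, led them with 2019 reads, or 10.6 RPKM (10.2 to 11.1), at rank 4152. An antisense gene, Gm15851, covers 9.68% of the exon bases of Prelp. Whether the counting used strand is not stated, so reads of the 2 genes there cannot be told apart. Fmod, the fibromodulin gene, known for its role in tendon collagen, had 363 reads, or 2.09 RPKM (1.88 to 2.32). Lum, the lumican gene, which is known from the cornea and from many fibroblasts, had 278 reads, or 2.16 RPKM (1.92 to 2.43). Both lay below the median of detected coding genes.

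The remaining class II genes were near the floor. Omd, the osteomodulin gene of bone, had 14 reads, or 0.119 RPKM (0.0648 to 0.199), and Kera, the keratocan gene of the cornea, had 3 reads, or 0.0251 RPKM (0.00517 to 0.0733). Markers of the tissues in which these genes are best known were low too. In the osteoblast list Runx2 had 3.30 RPKM, the other 5 genes lay at or below 0.0785 RPKM, and Bglap, which encodes osteocalcin, had 0 reads (interval up to 0.114 RPKM). In the corneal list, which includes Kera, Angptl7 had 1.40 RPKM and the other 4 genes between 3 and 5 reads.

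Ogn, the osteoglycin or mimecan gene and the only class III gene of the 10, had 1053 reads, or 7.82 RPKM (7.35 to 8.30). Prelp was 1.36 times as high (1.26 to 1.47). Podn, the class V gene of podocan, had 489 reads, or 2.18 RPKM (1.99 to 2.38). Podn, Lum and Fmod did not differ beyond counting error: the ratio of Podn to Lum was 1.01 (0.869 to 1.17) and that of Lum to Fmod 1.03 (0.881 to 1.21), and their order changed with the length used. Neither did Omd differ from Aspn (ratio 2.09, 0.791 to 6.13) nor Aspn from Kera (2.26, 0.516 to 13.5), while Omd was above Kera (4.73, 1.32 to 25.7). The other steps in the order were larger than counting error, the widest being that between Fmod and Omd, a ratio of 17.6 (10.4 to 32.6).

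Neighbouring genes of the family differed widely in level. On chromosome 10, Dcn, Lum, Kera and Epyc follow each other within 202 kb, with no other protein-coding gene between them, and Dcn held 97.3% of the summed level of the group. Lum begins 47.3 kb after Dcn ends, and the level of Dcn was 41.2 times that of Lum (36.6 to 46.6). Kera, 34.3 kb beyond Lum, had 3 reads, so that Lum was 86.3 times as high, with a counting interval of 29.2 to 421. Epyc, the gene of epiphycan, a cartilage protein, had 35 reads, or 0.260 RPKM.

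On chromosome 13, too, 1 gene stood above its neighbours. Ecm2, Aspn, Omd and Ogn lie within 120 kb, and Ogn held 96.4% of their summed level. Ogn begins 15.4 kb after the end of Omd, and its level was 65.9 times that of Omd (39.1 to 121). It was 138 times that of Aspn (66.7 to 344). Aspn, Omd and Ogn overlap Cenpp, a centromere protein gene on the opposite strand, which had 339 reads, or 2.52 RPKM. Ecm2 was not examined for overlap. Cenpp shares 0 exon bases with Ogn and Omd and 7 with Aspn. Reads from Cenpp introns that fall on these genes cannot be told apart from their own without strand; their part in the 7 and 14 reads of Aspn and Omd was not tested.

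On chromosome 1 the group of Optc, Prelp and Fmod spans 151 kb, and Prelp held 81.0% of its summed level and Fmod 15.9%. Prelp was 5.09 times as high as Fmod (4.55 to 5.70), which lies 107 kb from it. Optc, the gene of opticin, a protein of the eye, lies 0.616 kb from Prelp and had 55 reads, or 0.407 RPKM; Prelp was 26.1 times as high (20.01 to 34.8). Bgn and Podn have no family gene beside them. The nearest coding genes of Bgn are Haus7, with 10.7 RPKM, and Atp2b3, a neuronal calcium pump gene 6.81 kb away, with 17 reads. Podn lies 1.26 kb from Slc1a7, which had 4 reads, and 133 kb from Echdc2, with 7.10 RPKM. In GENCODE M21 a longer form of Podn also overlaps Scp2, a gene on the same strand with 608 reads, or 3.33 RPKM, with which it shares 0 exon bases; reads from introns there cannot be told apart. The nearest coding genes outside the groups are Btg1, 857 kb before Dcn, Nol8, 28.6 kb after Ogn, and Btg2, 26.6 kb after Fmod. They had 9.45, 5.29 and 11.5 RPKM.

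**Figure D3:**
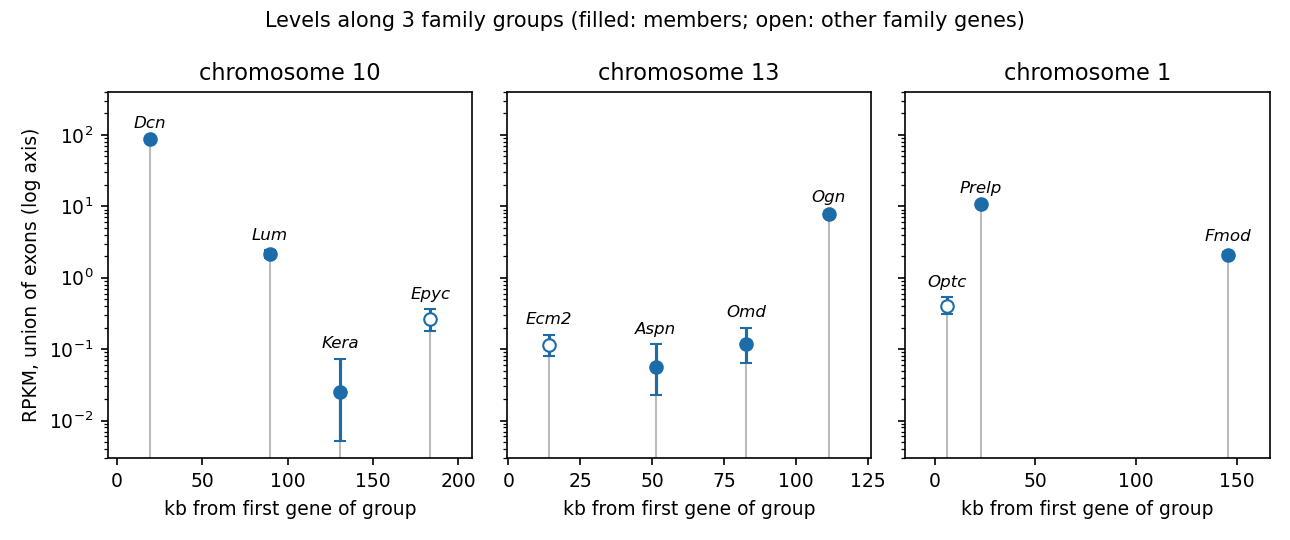
Levels along the family groups on chromosomes 10, 13 and 1, plotted in RPKM on a log axis against the distance in kb from the first gene of each group, with exact Poisson intervals as bars. Filled points are genes of the 10 and open points other genes of the family; Dcn, Ogn and Prelp each stand above their neighbours in the same group.

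Of the 7 further genes of the family, 1 was well expressed. Tsku, the gene of tsukushi, a class IV protein known to modulate BMP and Wnt signalling, had 6029 reads, or 37.7 RPKM (36.7 to 38.6), 3.54 times the level of Prelp (3.36 to 3.72) and below Dcn. Podn had 2.18 RPKM, against 2.59 RPKM (482 reads) for Podnl1, its class V relative. Epyc, Optc and Ecm2 lay between 0.114 and 0.407 RPKM. Nyx, a gene of the retina, had 9 reads, and Chad, a gene of cartilage, had 2 reads. The median of the 10 genes was 2.17 RPKM, against 0.260 RPKM for these 7.

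The enzymes that build chondroitin and dermatan sulfate, the chains of biglycan and decorin, were present. Of 16 genes, 14 were detected at 10 reads and 9 exceeded the 4.94 RPKM median of detected coding genes. Over all protein-coding genes the shares were 67.8% and 33.9%, which also stand beside the counts of the lists below. The median of the 16 genes was 6.66 RPKM. Dse, the epimerase that turns chondroitin into dermatan sulfate, led with 38.5 RPKM (37.8 to 39.3). The sulfotransferase gene Chst12 had 25.1 RPKM and the chondroitin synthase gene Chsy1 23.7 RPKM. Chst7 and Chst13, also sulfotransferase genes, had 9 and 4 reads.

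In the list for the linker and the sugar and sulfate donors, all 13 genes were detected and 7 exceeded the detected median, with a list median of 4.99 RPKM. Ugdh, which makes the precursor of glucuronic acid, had 18.8 RPKM. Slc35b2, which carries the sulfate donor into the Golgi, had 16.8 RPKM, and Papss2, which makes that donor, had 16.6 RPKM. The xylosyltransferase genes, whose enzymes begin chondroitin, dermatan and heparan sulfate chains, were unequal: Xylt2 had 4.01 RPKM (3.74 to 4.29) and Xylt1 0.0730 RPKM (0.0514 to 0.101). These 2 were singled out after their values were seen.

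The list for keratan sulfate and tyrosine sulfation was split. Its leading genes serve other glycans and proteins as well: B4galt1, a galactosyltransferase gene, had 62.6 RPKM, Tpst2, a tyrosine sulfotransferase gene, 34.4 RPKM, and B4galt4 31.5 RPKM. Chst4 and Chst5, sulfotransferase genes, had 5 reads each. Of its 10 genes, 8 were detected and 5 exceeded the detected median, with a list median of 9.97 RPKM.

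**Figure D4:**
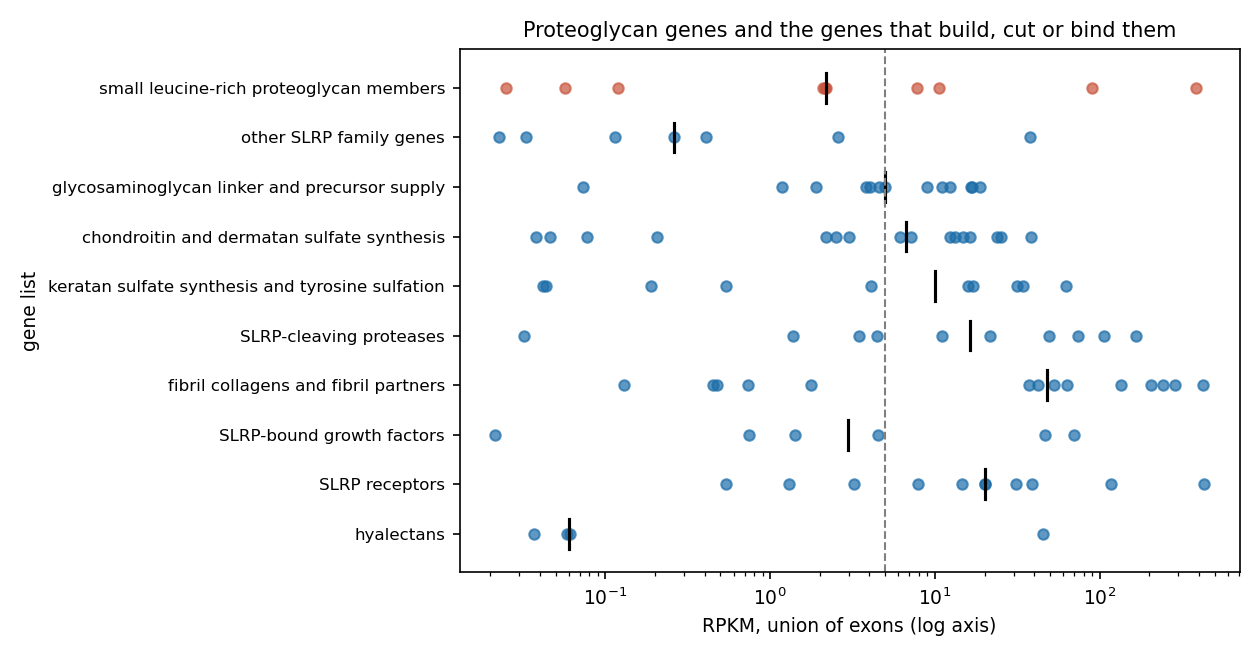
Levels of the 10 small leucine-rich proteoglycan genes (SLRP, top row, red) and of the genes of 9 related lists (blue), in RPKM on a log axis; each point is a gene, the black tick is the list median and the dashed line the median of detected coding genes (4.94 RPKM). The median of the 10 genes, 2.17 RPKM, lies left of that line, and the median of the collagen list, 47.7 RPKM, lies right of it.

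The collagen list was the most abundant of the 9 in median level. All 14 genes were detected and 9 exceeded the detected median, led by Col1a1 at 424 RPKM, Col6a1 at 286 RPKM and Col1a2 at 243 RPKM. With the union of exons the 10 proteoglycan genes summed to 500 RPKM, against 1495 RPKM for the collagen list. The 2 sums were not compared under the other lengths. Bgn alone went from 0.909 times the level of Col1a1 to 3.33 times with coding sequences, so the ratio of the sums may depend on the length too. Of the 4 hyalectans, the large proteoglycans that bind hyaluronan, Vcan, the versican gene, had 45.4 RPKM, and the other 3 lay between 0.0371 and 0.0609 RPKM. Bgn was 8.51 times as high as Vcan, and up to 32.6 times under the other lengths, and Dcn 1.97 times, and up to 7.52 times.

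Genes of enzymes that process or cut these proteins were also present. Bmp1, whose product trims the propeptide of biglycan, had 21.7 RPKM (21.3 to 22.1), its relative Tll1 11.05 RPKM and Tll2 8 reads. Mmp2 had 167 RPKM, Mmp14 106 RPKM and Htra1 73.7 RPKM. Of the 10 genes of this list, 9 were detected and 6 exceeded the detected median, with a median of 16.4 RPKM. With 1 library there is no pattern across samples, so genes of like pattern were not sought.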

How the data were processed

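The data are a SOLiD library of TRIzol-extracted RNA from 1 mouse fibroblast culture, per the labels. The deposited values are a signal: of 20976 values above 0, 100.00% were whole multiples of 1.18 within 0.01 of a multiple, so the deposited table was taken to hold whole read counts divided by 1 size factor (0.850), and the whole reads were recovered. The design had assumed counts; no count test was run, because 1 library has no replicate. The submitters' processing notes name DESeq and mm10, without their roles. No source used here names the aligner, counter, strand setting or filters.

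Rows of 1 gene were summed; each of the 10 genes had 1 row. Of 24214 rows, 98.4% matched a RefSeq accession (GRCm38.p6). RPKM used the union of exons in GENCODE M21, found for 99.7% of coding genes. A gene was detected at 10 reads; medians on the log2 scale used a pseudocount of 0.5. Alternatives were other lengths, library totals, pseudocounts and thresholds. The members and lists, and the rule for named genes (all members and family genes, adjacent coding genes, and the leading 3 and undetected genes of each list), were chosen with earlier results of these data known; others are named after their values were seen. Read recovery and intervals were tested on simulated data. Python 3.11.15, numpy 2.4.6, scipy 1.17.1 and matplotlib 3.10.9 were used.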

Additional observations from a re-analysis of the deposited data

How the results depend on the processing

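Leaving out a replicate was not possible, as there is 1 library. No paired analysis was possible because there is no second sample. The number of the 10 genes detected was 10 at 1 read and 7 at 50 reads, against 8 at 10 reads. At 10 reads 67.8% of protein-coding genes were detected. Their share at 1 and 50 reads was not taken, so those counts have no background beside them. Reads of the 10 genes equalled 0.396% of the total without the 100 most abundant genes and 0.322% of the total of coding genes, against 0.296%. Only the total was changed, and all reads of the 10 genes were kept. The first value is therefore not a true share if any of the 10 is among those 100, such as Bgn. The ratio of Bgn to Dcn, 4.33, was 7.96 with the longest transcripts, 4.34 with coding sequences and 3.29 with the transcripts that the rows name, a setting chosen after seeing the data; fewer bases assigned to a gene raise its level by construction. The median of log2(RPKM + 0.5) over the 10 genes, 1.42 against 0.75 over all coding genes, was 1.53 with the longest transcripts, 2.62 with coding sequences, 1.61 with the named transcripts, 1.77 and 1.52 with the totals without the 100 most abundant genes and of coding genes, and 1.41 without Bgn. With a pseudocount of 5 it was 2.84. It was above the median of coding genes in all of these. When genes under 10 reads were left out it was 2.24, against 2.44 for coding genes, so the order turned; this setting removes genes near 0 from both. Across the 9 related lists, 83 of 91 genes had at least 10 reads and 75 at least 50. Of the 91, 48 lay above the median of detected coding genes, or 47 with the longest transcripts. Among all protein-coding genes, 67.8% had at least 10 reads and 33.9% lay above that median with the union of exons. Levels of Omd, Aspn and Kera rest on 14, 7 and 3 reads, so Aspn cannot be placed relative to Omd or Kera at this depth.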

Other observations

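Growth factors and receptors known to interact with these proteoglycans varied in level in the same library. Of 6 growth factor genes 5 were detected at 10 reads and 2 exceeded the median of detected coding genes. The shares over all protein-coding genes were 67.8% and 33.9%. Wisp1, whose product binds decorin and biglycan, had 69.9 RPKM (68.9 to 70.8), Tgfb3 46.3 RPKM and Tgfb2 4.55 RPKM, while Tgfb1 had 1.42 RPKM (1.28 to 1.57) and Bmp2 4 reads. All 11 receptor genes were detected and 8 exceeded that median, with a list median of 20.1 RPKM. Itgb1 led with 431 RPKM, followed by Lrp1, an endocytic receptor of decorin, with 117 RPKM, and Egfr with 39.1 RPKM. The receptors by which free biglycan is known to act in innate immunity were unequal, with 14.7 RPKM (14.2 to 15.1) for Tlr4 and 0.537 RPKM (0.429 to 0.664) for Tlr2.

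Markers of tissues in which other members of the family are best known were low. In the tenocyte list Mkx had 1.24 RPKM and Scx 0.797 RPKM, while Tnmd and Thbs4 had 3 and 7 reads. In the chondrocyte list Matn3 had 4.60 RPKM, Sox9 0.576 RPKM, and the other 6 genes lay at or below 0.130 RPKM. None of the 4 tenocyte and 8 chondrocyte genes exceeded the median of detected coding genes.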
